A study of Arabidopsis thaliana with 4 samples.

Results

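The chloroplast genome of Arabidopsis thaliana encodes subunits of the photosynthetic complexes together with part of the machinery that transcribes and translates them. Here its genes were compared between shoot apices of clv3 and mp clv3 plants. Members were all rows of the deposited table whose gene identifier begins with ATCG, which gave 81 of 27322 genes, a rule that uses no measured value. The table pairs none of these identifiers with a symbol. Names were therefore given by matching the gene model length that the reads and RPKM imply to the coding lengths of the RefSeq TAIR10.1 plastid genome. Length alone named 62 members, and a further 13 with equal lengths were named by their place between neighbours named by length. The other 6 keep their identifiers. The 75 named members are 71 different genes, since rpl2, rpl23, rps7 and ycf2 are each listed in both copies of the inverted repeat, a segment that the plastid genome carries in duplicate.

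CLV3 encodes a secreted peptide that restricts stem cell number in the shoot meristem, and MP (MONOPTEROS) encodes an auxin response factor needed for flower initiation. The groups are clv3 plants and plants with mutations in both genes, so the clv3 mutation is shared by both. The genotype labels say clv3 and mp clv3, but under growth the labels speak of Col-0 and mp319 clv3-7, so that the clv3 group is named here by its genotype label. Plants of both groups were 6 weeks old and had been raised at 22 °C under a day of 16 h light and 8 h dark, and inflorescence apices were taken after the older flowers had been removed. The labels list 2 libraries per genotype. The deposited values are 1 column of reads and 1 of RPKM (reads per length of gene model, relative to the column total) per genotype. The spread between libraries is therefore unknown, and no difference below has a replicate check. The clv3 column holds 100328819 reads and the mp clv3 column 103347441. Intervals are exact 95% intervals on read pairs (reads divided by 2, since both mates seem to be counted) and cover counting error only.

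Plastid genes are transcribed by a bacterial-type RNA polymerase, whose core subunits the plastid encodes and whose sigma factors the nucleus encodes, and by phage-type polymerases from the nucleus. Many plastid genes lie in polycistronic transcription units and are cut into smaller mRNAs afterwards. Each photosynthetic complex and the plastid ribosome combine subunits from both genomes. Plastid mRNAs mostly lack stable poly(A) tails, and a poly(A) tract on plastid RNA is known as a mark for degradation. The libraries were made from poly(A)-purified RNA, per the labels' protocols, so the values describe the plastid RNA that passed this step. The part of that step in the results was not tested.

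The coding sequences of 4 small genes are shown first, because they bound what was measured: petN, petL and petG had the lowest ratios of all members, and rpl36 has the same length as petG but far more reads. They were copied from RefSeq TAIR10.1 and run 5′ to 3′ on the coding strand, with the start and stop codons in capitals.
petN: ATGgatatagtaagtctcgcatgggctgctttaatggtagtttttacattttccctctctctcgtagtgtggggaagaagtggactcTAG
petL: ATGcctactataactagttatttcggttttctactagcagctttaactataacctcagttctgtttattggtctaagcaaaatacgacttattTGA
petG: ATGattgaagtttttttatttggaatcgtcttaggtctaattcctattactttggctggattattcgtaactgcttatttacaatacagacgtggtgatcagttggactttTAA
rpl36: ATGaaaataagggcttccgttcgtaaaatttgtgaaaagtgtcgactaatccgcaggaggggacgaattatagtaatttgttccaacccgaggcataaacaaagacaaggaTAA
The gene models of petN (90 bases) and petL (96 bases) are shorter than the reads of 100 bases, and those of petG and rpl36 measure 114 bases each.

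Chloroplast genes took a smaller part of the reads in mp clv3, and nearly all of them were lower. They held 805673 reads in clv3, or 0.803% of the column (interval 0.801% to 0.806%). In mp clv3 they held 514185 reads, or 0.498% (interval 0.496% to 0.499%). The share was 1.61-fold lower in mp clv3 (interval 1.61 to 1.62). In the authors' deposited table, 78 of 81 members (96.3%) were lower in mp clv3 at an FDR under 0.05, against 46.3% of all 27322 genes, and 0 were higher, against 26.4% of all genes. In either direction 72.7% of all genes were called. Where the mean reached 100 reads, which 18832 genes did, 53.3% were lower in that table. The median log2 ratio of mp clv3 over clv3 was -0.66 over the members and -0.11 over all genes. At least 2-fold lower were 16 members (19.8%), close to the 18.5% of all genes in the authors' deposited table, and 0 were at least 2-fold higher, against 9.33% of all genes. In bulk tissue, fewer green cells and less plastid RNA per cell cannot be told apart.

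Genes of the mitochondrial genome, the other organelle genome in the table, were not lower as a group. Its 111 genes held 0.0446% of reads in clv3 and 0.0480% in mp clv3, a share 1.08-fold higher in mp clv3 (interval 1.06 to 1.10). Of them, 58 were higher, 3 were lower and 50 were not called in the authors' deposited table, and their median log2 ratio was 0.52.

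Levels among the chloroplast genes differed far more than the genotypes did. RPKM spanned 2250-fold in clv3 and 2360-fold in mp clv3 over single rows, with a repeat copy of ycf2 lowest in each column. Every member had reads in both columns, from 19 to 109699. The order of the members was close to the same in both columns (Spearman rho 0.98 across 81 genes, which are not independent replicates). The level did not order the ratios (rho 0.04 between mean log2 RPKM and log2 ratio). The same 10 members, both copies of rpl2 among them, held the most reads in both columns. They took 66.3% of all chloroplast reads in clv3 and 65.4% in mp clv3. The highest RPKM belonged to rpl16, a protein of the large ribosomal subunit, with 1671 in clv3 and 1144 in mp clv3. Next among single rows came rpl14, also of the large subunit, with 1091 and 697. The 2 rows of rpl2 had 589 and 590 RPKM in clv3 and 387 and 385 in mp clv3. Reads seem to have been divided between repeat copies, so each such row understates the level of its gene. The gene for the D1 core protein of photosystem II, psbA, ranked only 38th in clv3 and 39th in mp clv3, at 39.9 and 20.7 RPKM. rbcL, which encodes the large subunit of the CO2-fixing enzyme Rubisco, ranked 37th in clv3 and 52nd in mp clv3.

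**Figure D1:**
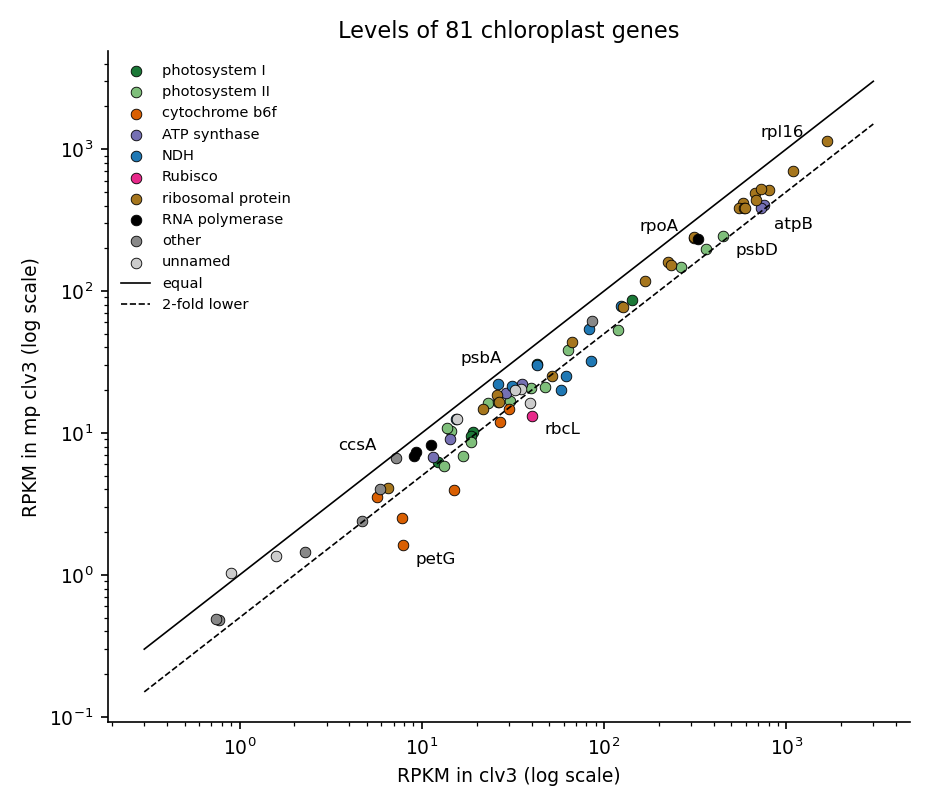
RPKM of the 81 chloroplast genes in mp clv3 (y axis) against clv3 (x axis), both on log scales, with 1 point per gene coloured by class; the solid line marks equal levels and the dashed line levels 2-fold lower in mp clv3. All members but ATCG01270 lie below the solid line, and ribosomal protein genes with atpB and atpE fill the upper end.

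Genes of photosystem II, the complex that oxidizes water, were all called lower, 2 of them (psbL and psbN) with counting intervals that hold 1. In the authors' deposited table all 15 were lower in mp clv3, and 5 of these (33.3%) differed at least 2-fold, against 18.5% of all genes. The class median was -0.88 on the log2 scale, and its summed reads were 1.86-fold lower (interval 1.84 to 1.89). psbD, which encodes the D2 core protein, had the highest level of the class, with 450 RPKM in clv3 and 243 in mp clv3, a fold of 1.85 (interval 1.81 to 1.89). psbC, for the inner antenna protein CP43, had 362 and 196 RPKM. Both columns therefore placed the D2 and CP43 genes far above psbA, whose 4253 reads in clv3 stood against 2275 in mp clv3 (log2 ratio -0.95). The lowest ratio of the class belonged to psbB, for the inner antenna protein CP47, with 2563 reads in clv3 and 1093 in mp clv3, a 2.42-fold difference (interval 2.18 to 2.67).

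At the other end of the class stood psbN, whose product acts in the assembly of photosystem II. It had 181 reads in clv3 against 147 in mp clv3, a log2 ratio of -0.34. The authors' deposited table called it lower at an FDR of 0.0382, the largest among the called members, while the counting interval of its fold held 1 (0.922 to 1.75). psbN lies on the strand opposite to the psbB transcription unit, and whether strand was used in counting is not given in the sources used here. Reads of psbN and of its antisense partner therefore cannot be told apart with certainty.

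Photosystem I genes gave a median log2 ratio of -0.92, and all 5 were lower in the authors' deposited table. psaA and psaB encode the core heterodimer and differed from each other by little. psaA had 18.7 RPKM in clv3 against 9.56 in mp clv3, and psaB had 19.0 and 10.1. The highest level was that of psaJ, with 142 RPKM in clv3 and 86.7 in mp clv3 (1.64-fold lower, interval 1.48 to 1.82). psaI had the lowest ratio, with 140 reads in clv3 and 73 in mp clv3 (1.98-fold lower, interval 1.31 to 3.03). The smallest difference was that of psaC, for the subunit holding the terminal iron-sulfur clusters, with 1060 reads in clv3 and 781 in mp clv3 (1.40-fold lower, interval 1.22 to 1.60).

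The cytochrome b6f complex carries electrons between the photosystems. It had the lowest median of the classes with more than 1 gene, -1.40 on the log2 scale. With gene models under 200 bases left out, its median was -1.03. All 6 of its genes were lower in the authors' deposited table, and 5 (83.3%) were at least 2-fold lower, against 18.5% of all genes. Summed over the class, reads were 2.12-fold lower (interval 1.96 to 2.29). The 3 smallest subunits, whose sequences are given above, had few reads. petN had 136 reads in clv3 against 37 in mp clv3, a fold of 3.79 (interval 2.24 to 6.72). For petG the reads were 90 and 19, a fold of 4.88 (interval 2.39 to 11.1), and for petL 75 and 25, a fold of 3.09 (interval 1.59 to 6.41). Their intervals overlap each other, so these reads do not order the 3 genes. The larger subunits were better measured: petB (cytochrome b6) was 2.25-fold lower (interval 2.00 to 2.54), petD (subunit IV) 2.04-fold (interval 1.79 to 2.31) and petA (cytochrome f) 1.60-fold (interval 1.32 to 1.95).

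The 16 members under 200 bases had a median log2 ratio of -0.85, and the 65 of at least 200 bases had a median of -0.65. Summed reads had the opposite order. They were 1.51-fold lower (interval 1.47 to 1.55) under 200 bases and 1.62-fold lower (interval 1.61 to 1.63) for the longer models. Genes of the same length could differ widely in level: rpl36, as long as petG, had 7691 reads in clv3 against 5747 in mp clv3, at 672 and 488 RPKM.

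All 6 ATP synthase genes were lower in the authors' deposited table, 0 of them by 2-fold. atpB and atpE encode the beta and epsilon subunits of the catalytic head and had the highest levels of any photosynthesis genes. atpB, the member with the most reads, had 109699 in clv3 and 59609 in mp clv3, at 730 and 385 RPKM (1.90-fold lower, interval 1.87 to 1.92). atpE had 750 and 402 RPKM (1.87-fold lower, interval 1.82 to 1.92). The 4 others lie together elsewhere on the genome and had levels of at most 35.6 RPKM. atpA (alpha subunit) had 11.5 RPKM in clv3 against 6.83 in mp clv3, and atpH (the ring subunit in the membrane) had 35.6 and 22.1. atpF, for a stalk subunit, had 14.2 and 9.07 RPKM, and atpI, for the membrane subunit a, had 28.8 and 19.1. Their log2 ratios ran from -0.75 to -0.60, and the fold intervals of atpF (1.34 to 1.84) and atpI (1.38 to 1.66) did not reach that of atpB. Those of atpA (1.51 to 1.87) and atpH (1.38 to 1.88) ran up to it, and the interval of atpE overlapped all of these but that of atpI.

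The NDH complex passes electrons from ferredoxin into the plastoquinone pool and takes part in cyclic electron flow. All 9 members named as its genes were lower in the authors' deposited table, but their log2 ratios ranged from -1.53 to -0.26. The unnamed members were not assigned to a complex, so the set may not be complete. The low end was a block of 3 adjacent genes. ndhC had 2122 reads in clv3 against 759 in mp clv3 (2.88-fold lower, interval 2.56 to 3.25), ndhK was 2.64-fold lower (interval 2.46 to 2.83) and ndhJ 2.44-fold (interval 2.22 to 2.68). ndhH, the member of the class with the highest level, had 124 RPKM in clv3 against 78.9 in mp clv3 (1.57-fold lower, interval 1.52 to 1.63). ndhF had 3458 reads in clv3 against 2892 in mp clv3, a fold of only 1.23 (interval 1.15 to 1.32), and ndhG had 1401 and 1208, a fold of 1.19 (interval 1.07 to 1.33). The intervals of the ndhC block and of ndhF and ndhG are far apart, so genes of the same complex differed by more than their counting error.

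rbcL, the only Rubisco gene of the plastid genome, had 5795 reads in clv3 against 1973 in mp clv3, at 40.1 and 13.3 RPKM. It was 3.03-fold lower (interval 2.81 to 3.26), the largest difference among members whose mean reached 100 reads. Its next neighbour on the genome is the atpB and atpE pair, transcribed in the opposite direction, whose 1.90-fold and 1.87-fold differences lay well outside that interval.

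Ribosomal protein genes held more than any other class of the chloroplast reads and were lower by less. All 22 members were lower in the authors' deposited table, but 1 was at least 2-fold lower. Their median log2 ratio was -0.58, and their summed reads were 1.49-fold lower (interval 1.48 to 1.5). As a share of chloroplast reads the class held 51.7% in clv3 and 56.1% in mp clv3. The 11 members of the small subunit had a median of -0.52 and the 11 of the large subunit -0.61. rpl16 had 68395 reads in clv3 against 48257 in mp clv3 (1.46-fold lower, interval 1.44 to 1.48). The exception in the class was rpl33, a large subunit protein, with 1046 and 525 reads (2.05-fold lower, interval 1.77 to 2.39). The smallest differences were those of the 2 copies of rps7, a small subunit protein, with log2 ratios of -0.40 and -0.38.

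The 4 core subunits of the plastid-encoded RNA polymerase had a median log2 ratio of -0.41, the smallest difference of the named classes. All were lower in the authors' deposited table. rpoA, for the alpha subunit, had 326 RPKM in clv3 against 233 in mp clv3 (1.40-fold lower, interval 1.37 to 1.43). The other 3 genes had levels below 12 RPKM in both columns. rpoB (beta) had 9.01 and 6.91 RPKM, a fold of 1.30 (interval 1.21 to 1.41). rpoC1 had 9.24 and 7.29, a fold of 1.27 (interval 1.15 to 1.40). rpoC2 had 11.2 and 8.25, a fold of 1.36 (interval 1.27 to 1.44). All 4 intervals overlap, so the differences of these genes could not be ordered.

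Among the other genes, clpP, a subunit of the plastid protease, had 85.7 RPKM in clv3 against 61.5 in mp clv3 (1.39-fold lower, interval 1.31 to 1.48). accD, a subunit of the acetyl-CoA carboxylase that starts fatty acid synthesis, had 335 reads in clv3 against 219 in mp clv3 (1.58-fold lower, interval 1.23 to 2.02). ycf4, for an assembly factor of photosystem I, had 260 and 137 reads (1.95-fold lower, interval 1.45 to 2.66). ccsA, which attaches heme to c-type cytochromes, was the only named member not called: its 718 reads in clv3 and 681 in mp clv3 gave a log2 ratio of -0.12 at an FDR of 0.14 in the authors' deposited table. The other members not called, ATCG00870 and ATCG01270, had at most 37 reads in either column. Of the remaining unnamed members, ATCG00040 was 2.41-fold lower (interval 2.26 to 2.57).

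**Figure D2:**
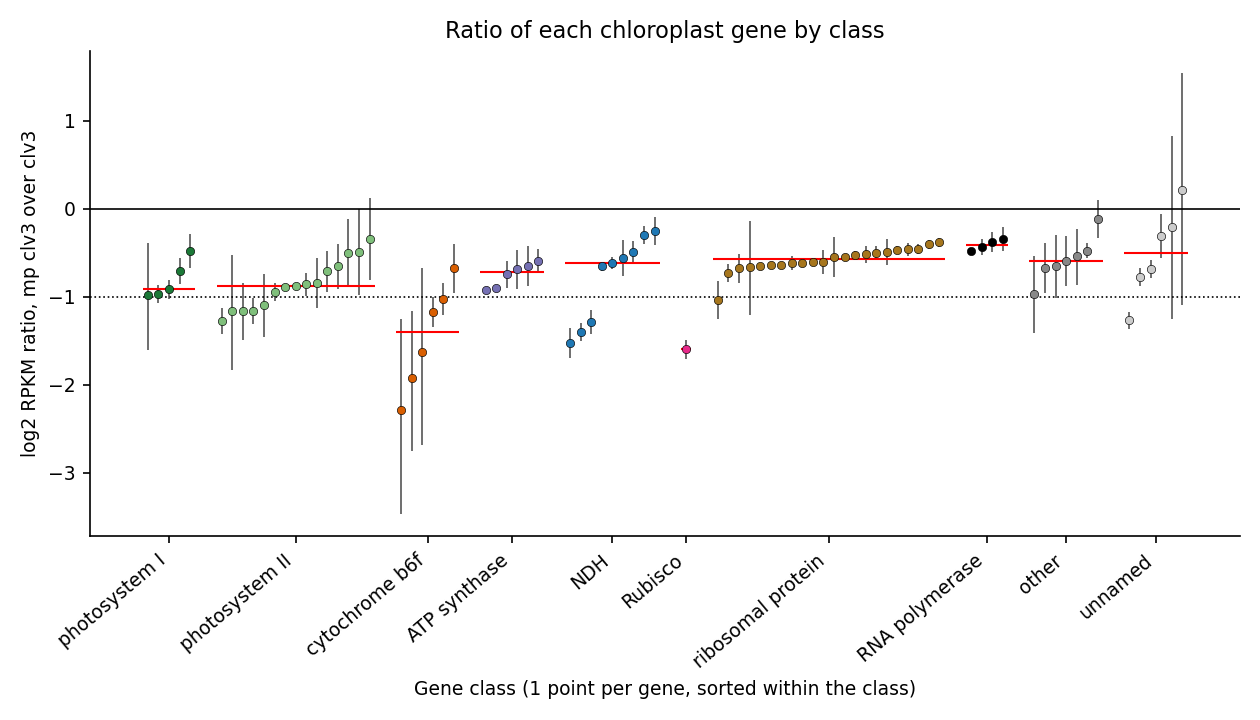
Log2 RPKM ratio of mp clv3 over clv3 (y axis) for each chloroplast gene, grouped by class (x axis) and sorted within it; bars are exact 95% counting intervals, red lines class medians, the solid line no difference and the dotted line 2-fold lower. Class medians run from -1.60 for rbcL to -0.41 for the RNA polymerase, and the ribosomal protein genes lie in a narrow band with rpl33 below it.

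Genes for photosynthesis were lower by more than genes for gene expression. The 42 genes of the thylakoid complexes and Rubisco had a median log2 ratio of -0.89 and summed reads 1.85-fold lower (interval 1.84 to 1.87). Of them, 14 (33.3%) were at least 2-fold lower in the authors' deposited table, against 18.5% of all genes. The 26 members of the ribosome and RNA polymerase are 23 different genes, since rpl2, rpl23 and rps7 are listed in both repeat copies. They had a median of -0.53 and summed reads 1.48-fold lower (interval 1.47 to 1.49). Of the 26, 1 (3.85%) was at least 2-fold lower in that table. The share of chloroplast reads on the first group went from 40.3% in clv3 to 35.1% in mp clv3, and on the second from 56.9% to 62.2%. These intervals cover counting error only, and the difference between the groups was not tested over libraries.

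The same contrast appeared when each gene was set against the chloroplast total of its own column, which takes out the lower overall share. The counting interval then lay above the total's ratio for 26 members, below it for 22, and held it for 33. Of the thylakoid and Rubisco genes 5 were above and 20 below. Of the 26 ribosome and polymerase members, with repeat copies counted apart, 18 were above and 1, rpl33, was below. The 5 thylakoid genes above were psaC, ndhA, ndhI, ndhG and ndhF, and the first 4 of these lie in 1 transcription unit.

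Genes set here in the same transcription unit had similar ratios, also where their levels differed. Units were drawn from general knowledge of the plastid genome after the values were seen, and 14 units with 56 genes were used. Some boundaries could be set otherwise, so the likeness within units is not independent of how they were drawn. In 13 of them the log2 ratios spanned at most 0.5. That width is above the median difference of 0.36 between adjacent genes outside a shared unit, so small units can meet it readily. Adjacent genes of the same unit differed in log2 ratio by a median of 0.11 (41 pairs). Adjacent genes outside a shared unit differed by a median of 0.36 (29 pairs), with 0.33 for those on the same strand (11 pairs) and 0.43 for those on opposite strands (18 pairs). Genes that overlap, such as psbD with psbC and atpB with atpE, may share reads, and neighbours on 1 transcript can share read pairs, so such pairs are not independent.

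The rpl23 unit, from rpl23 through rpoA, shows this over 10 genes. It held 48.7% of chloroplast reads in clv3 and 52.6% in mp clv3, both repeat copies included. Among its genes listed once, the RPKM in clv3 ranged from 326 for rpoA to 1671 for rpl16. The log2 ratios of the unit lay between -0.66 and -0.46. rpoA, at the end of this unit, had a log2 ratio of -0.49, inside that range, and a level far above the rpoB unit.

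The psbB unit joins genes of different complexes. It runs from psbB through psbT and psbH of photosystem II to petB and petD of cytochrome b6f, and its 5 log2 ratios lay between -1.27 and -1.03. In the psbE unit, also of photosystem II, the log2 ratios lay between -0.71 and -0.49, so no gene of it reached the range of the psbB unit. The psaA unit holds psaA and psaB with the ribosomal gene rps14, whose log2 ratio of -0.73 was the second lowest among the ribosomal protein genes. rpl33, the lowest of them, lies between psaJ and rps18 in the psaJ unit, where the log2 ratios were -0.71, -1.04 and -0.61 in order.

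The ndhC unit and the ndhH unit hold all named NDH genes except ndhF, whose log2 ratio was -0.30. The first, with ndhC, ndhK and ndhJ, spanned log2 ratios from -1.53 to -1.28. The second also holds rps15 and psaC beside 5 ndh genes, and its ratios ran from -0.65 to -0.26. psaC at -0.48 and rps15 at -0.52 fell inside the range of their ndh neighbours and not near psaA or psaB. The petL unit, with 75 and 90 reads in clv3 for its 2 genes, was the 1 unit whose ratios spanned more than 0.5. Its petG and the adjacent psaJ on the same strand were set in different units. They differed in log2 ratio by 1.58, the most of any adjacent pair. The count of units within 0.5 and the medians over pairs depend on such boundaries, which were drawn with the values known.

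**Figure D3:**
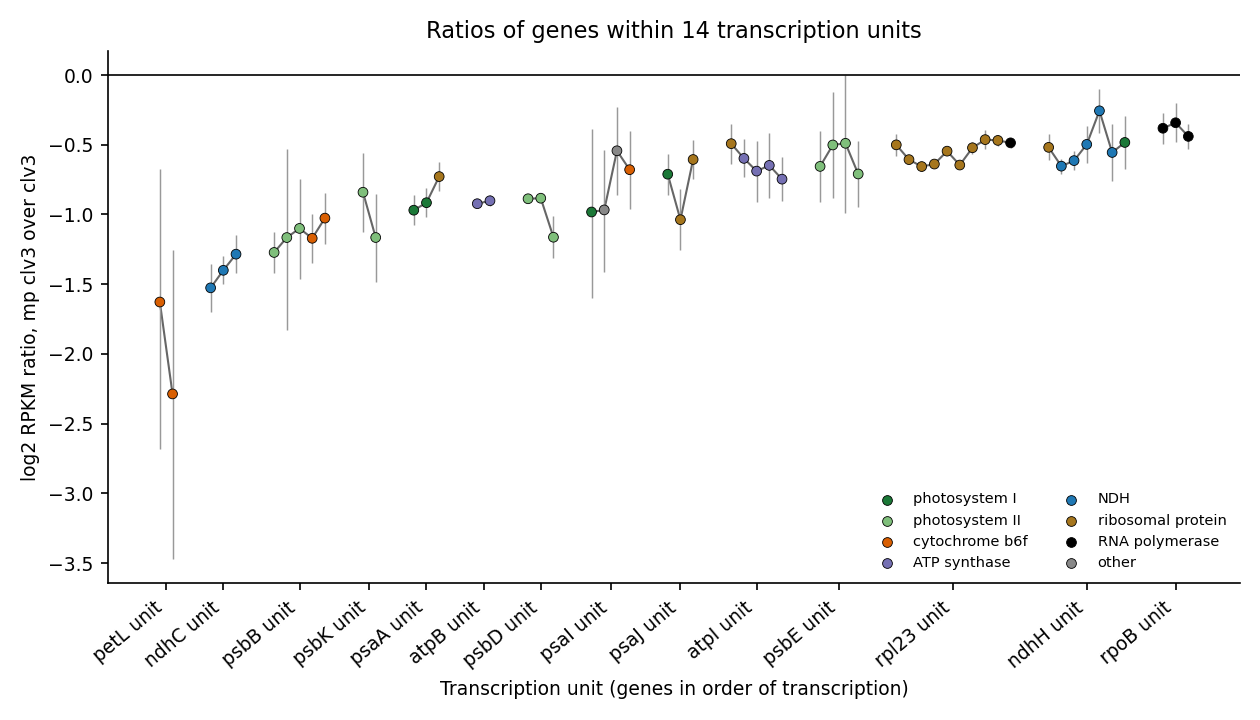
Log2 RPKM ratio of mp clv3 over clv3 (y axis) for 56 chloroplast genes in 14 transcription units (x axis, sorted by median), with lines joining the genes of a unit in order of transcription, colours for the class and bars for exact 95% counting intervals. The psbB and ndhH units join genes of different classes, and their log2 ratios span 0.25 and 0.40. The 2 ndh units lie apart.

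Copies of the inverted repeat gave an internal check on the counting. For rpl2, the copies had 48719 and 48847 reads in clv3 and 32958 and 32836 in mp clv3. The first copy held between 49.1% and 51.7% of the reads of rpl23, rps7, rpl2, ycf2 and the pair ATCG00890 and ATCG01250 in either column, so reads seem to have been divided evenly between these copies. In the pair ATCG00870 and ATCG01270, with 58 reads in each column, the first held 63.8% in clv3 and 56.9% in mp clv3, and the log2 ratios were -0.21 and 0.21. With both copies summed, the log2 ratio was -0.61 for rpl2, -0.56 for rpl23, -0.39 for rps7 and -0.63 for ycf2. Each copy's value is therefore not a separate measurement.

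Base composition was compared because the RNA was selected on poly(A). Across 71 named genes, the percentage of A in the coding sequence had a Spearman rho of 0.50 with the log2 ratio. Ribosomal protein genes had a median of 35.5% A and photosystem II genes 25.0%, so composition and class go together. Within the thylakoid and Rubisco genes rho was 0.29 (42 genes), and within the ribosome and polymerase genes it was -0.25 (23 genes). The longest run of A had a rho of 0.31 with the log2 ratio. With the level, the percentage of A had a rho of 0.28 in clv3 and 0.35 in mp clv3 (RPKM), and the longest run of A had -0.03 and 0.01. These values describe genes of shared libraries and carry no test.

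Nuclear genes whose products act with the chloroplast genes were mostly lower as well, some of them by more. The lists were chosen by known function, with earlier results of these data known, and may not be complete. All of their genes were measured. Their counts stand beside 46.3% of all genes lower and 18.5% at least 2-fold lower in the authors' deposited table (53.3% lower where the mean reached 100 reads). All 17 listed nuclear subunits of the same thylakoid complexes were lower in the authors' deposited table, 11 of them at least 2-fold (median log2 ratio -1.16). The listed nuclear NDH subunits stood lowest, with a median of -3.06 over 4 genes. NDHM had 1214 reads in clv3 against 120 in mp clv3 (10.4-fold lower, interval 7.98 to 13.8), and NDHL had 2728 and 278 (10.1-fold lower, interval 8.48 to 12.1). No named plastid ndh gene differed by more than 2.88-fold. For photosystem I the nuclear median was -0.998 (6 genes) and the plastid median -0.92, and for photosystem II it was -0.99 (4 genes) and -0.88. For the ATP synthase it was -1.19 (2 genes) against -0.72. Cytochrome b6f went the other way in its median. Its 1 listed nuclear gene, PETC, had a log2 ratio of -0.74 and the plastid genes a median of -1.40. That plastid median leans on petN, petL and petG, which had few reads, and was -1.03 for gene models of at least 200 bases. The fold intervals of petB and petD lay above that of PETC (1.62 to 1.73). That of petA (1.32 to 1.95) overlapped it, so petA and PETC could not be ordered.

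The list of plastid ribosomal proteins encoded in the nucleus held 15 chosen genes, and the authors' deposited table called all 15 lower. Their median log2 ratio was -0.97, against -0.58 for the plastid-encoded ones. PRPL11 had the largest difference, 2.84-fold lower (interval 2.69 to 2.99), followed by PRPL21 at 2.23-fold (interval 2.16 to 2.31). The smallest difference on this nuclear list, a log2 ratio of -0.85, was larger than that of every plastid ribosomal gene except rpl33.

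Transcription components from the nucleus did not move alike. The proteins associated with the plastid-encoded polymerase, which it needs for activity, were all called lower, 12 of 12, by the authors' deposited table (median log2 ratio -0.99). PAP5 was 2.38-fold lower (interval 2.25 to 2.52) and PAP3 2.34-fold (interval 2.23 to 2.45). Of 8 sigma factors and phage-type polymerases, the authors' deposited table called 7 lower and 1 higher (median log2 ratio -0.38). SIG4, known in Arabidopsis for transcription of ndhF, had 2033 reads in clv3 against 361 in mp clv3 (5.80-fold lower, interval 4.95 to 6.83), whereas ndhF itself was 1.23-fold lower. SIG5, a stress- and light-induced factor known for the blue-light promoter of psbD, had 429 and 1835 reads (4.15-fold higher, interval 3.58 to 4.84), whereas psbD was 1.85-fold lower. SIG3, known for transcription of psbN, differed by 1.07-fold (interval 1.003 to 1.144). The phage-type polymerase RPOTp had a log2 ratio of -0.58.

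The 5 listed genes for plastid RNA processing and turnover were all lower in the authors' deposited table (median log2 ratio -1.24). CSP41A and CSP41B, RNA-binding proteins that stabilize plastid transcripts, were 5.43-fold (interval 5.05 to 5.85) and 3.66-fold lower (interval 3.47 to 3.86). Among 4 regulators of greening, 3 were lower and 1 higher in that table. GLK1, a transcription factor for nuclear photosynthesis genes, was 5.95-fold lower (interval 5.04 to 7.07) and GNC 2.75-fold lower (interval 2.15 to 3.55), while the 1 called higher, CGA1, had 25 and 52 reads and a counting interval that held 1.

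**Figure D4:**
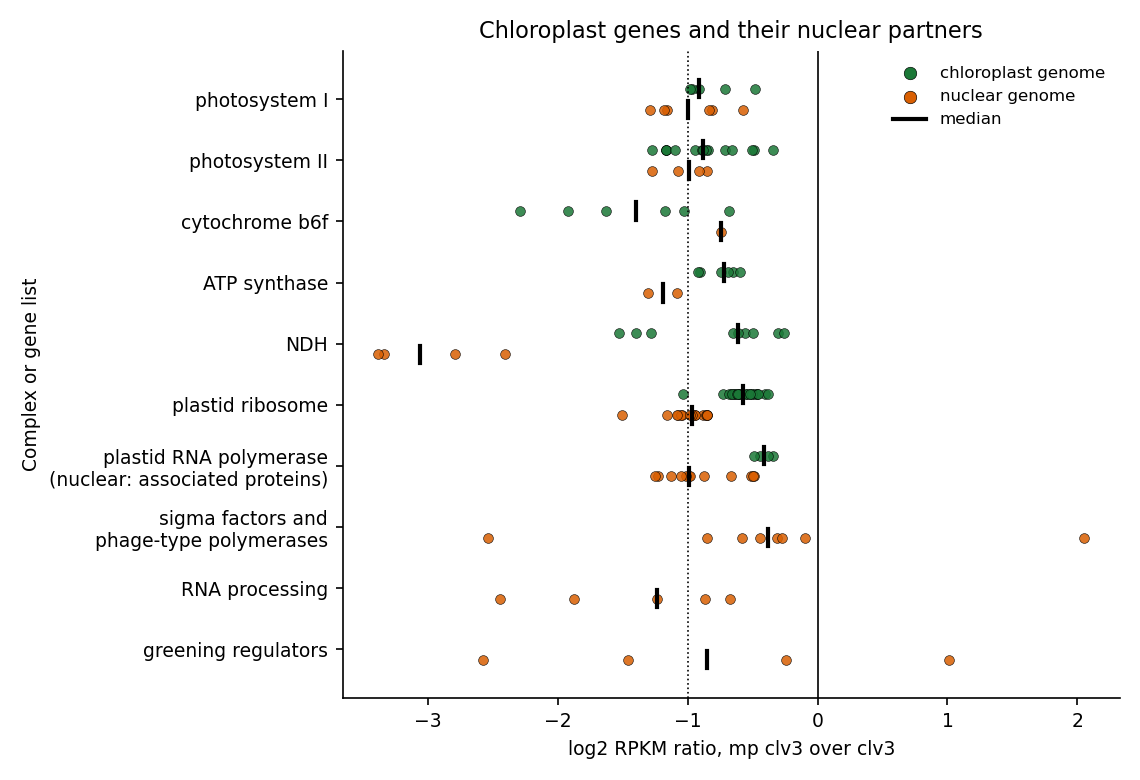
Log2 RPKM ratio of mp clv3 over clv3 (x axis) for genes of the chloroplast genome (green) and the nuclear genome (orange) by complex or list (y axis), with 1 point per gene and black bars for medians; the dotted line marks 2-fold lower. The listed nuclear NDH subunits lie far to the left of the plastid ndh genes, and SIG5 is the point near 2 on the right.

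The tissue differed between the groups as well. Listed genes of the tapetum and pollen were all called lower, 7 of 7, by the authors' deposited table, against 46.3% of all genes. Their summed level was 620 RPKM in clv3 against 13.6 in mp clv3. MS2 was at 0 reads in mp clv3, and A9 had 8430 reads in clv3 against 2. LAP6 made up 13.4 of the 13.6 RPKM left. The part of this difference in floral tissue in the chloroplast result was not tested.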

How the data were processed

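RNA-seq of shoot apices was labelled as 2 libraries per genotype. CASAVA 1.7, BWA and TAIR10 are the tools and build named, per the submitters' processing notes. Not given in the sources used here are the counting, use of strand, the joining of libraries and the source of the FDR. The authors deposited read counts as a signal per gene and genotype (0.5 stands for none), per the file headers. RPKM, a log2 ratio and an FDR (adjusted p-value) are also deposited, per the file headers. One row of 27323, AT1G01010, held other content and was left out. Of values from 1 to 9, 83.3% were even in clv3 (82.5% in mp clv3), so intervals use read pairs.

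Calls are the authors' deposited FDR under 0.05. Shares and folds carry exact Clopper-Pearson 95% intervals, tested on simulated data. No test over samples was possible with 1 column per genotype, and no p-value was computed. The members, classes and lists were chosen with earlier results of these data known, and the transcription units after values were seen. The rule for genes singled out in the text allowed any chloroplast gene, with full values for the highest level and the largest ratio each way in each class, psbA, rbcL, and the RNA polymerase and ATP synthase genes, and 2 genes per nuclear list. SIG3, RPOTp, LAP6 and CGA1 were chosen after their values were seen. Recovered lengths deviated from whole bases by at most 0.00055%. Of genes with 1 length match, 53 of 53 steps kept the order of the genome. Promoter motifs were not analysed here. Python 3.11.15, numpy 2.4.6, pandas 2.3.3, scipy 1.17.1 and matplotlib 3.10.9 were used.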

Additional observations from a re-analysis of the deposited data

How the results depend on the processing

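No paired analysis was possible because the table holds no values per library, and leaving out libraries or using other count tools was not possible for the same reason. Of 180 values of 30 named genes under other settings, 177 kept direction and side. ccsA, not called, turned from -0.12 to 0.0024 under median scaling and 0.022 under quantile normalization. On the read-pair interval 76 genes were lower in place of 78, as psbN (-0.34) and psbL (-0.49) lost their calls. The medians of 9 classes under 7 such settings, 63 values, ran from -1.60 to -0.22.

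The count of 78 lower genes became 76 under quantile normalization, where 2 were higher, and 16 when a fold of 2 was asked. The median log2 ratio of -0.66 became -0.53 under median scaling, -0.59 under quantile normalization, -0.61 with 1 RPKM added, -0.65 with 0.1 RPKM added and -0.65 with gene models of at least 200 bases, where 10 genes were at least 2-fold lower. Scaled to the chloroplast total, a setting added after seeing the data, it was 0.035, with 32 genes lower, 46 higher and 2 at least 2-fold lower; this scaling sets the total ratio to 1 by construction. The share fold of 1.61 became 1.48 under median scaling. Without atpB the shares were 0.694% in clv3 and 0.440% in mp clv3, and the fold 1.58. Depth limits petN, petL, petG, psbL, psbN and the 234-base models, whose fold intervals are wide.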
